A study of Canis lupus familiaris with 12 samples.

Results

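Fatty acid oxidation and the tricarboxylic acid cycle were examined through 39 named genes in heart tissue of dogs. Left ventricle and mitral valve from animals with degenerative mitral valve disease (DMVD) were each set against the same tissue of control dogs labelled normal. The genes cover uptake and activation of fatty acids, the carnitine shuttle, beta-oxidation, electron transfer, the pyruvate dehydrogenase complex and the cycle itself. They were found by symbol, or by the canine UniProt entry name, in the gene tables of the authors, and 35 of the 39 had a row among the 24223 genes listed for each tissue. The authors tested 32 of these 35 in both tissues. No row carried the names ACADVL, CS, OGDH or PDHB, and these 4 genes were not analysed here.

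DMVD thickens the leaflets of the mitral valve so that blood leaks back into the left atrium. The RNA of 8 animals, 4 of them diseased and 4 normal, was sequenced as 12 libraries. The DMVD left ventricle group held 2 libraries, from a Jack Russell Terrier aged 5 years and a Pomeranian aged 9 years, and the control left ventricle group held 4, from a Beagle aged 8 years and 3 Hound mixes aged 3 years. The DMVD mitral valve group held 3 libraries, from the same Pomeranian and from Beagles aged 16 and 17 years, and the control mitral valve group held 3, from the Beagle aged 8 years and 2 of the Hound mixes. Breed and age differed between the groups in both tissues, and their part cannot be told apart from that of the diagnosis. The labels name no treatment or surgery for any group.

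The heart muscle draws most of its energy from fatty acids. A fatty acid is taken up, tied to coenzyme A, carried into the mitochondrion as a carnitine ester and shortened by repeated rounds of beta-oxidation, each of which releases acetyl-CoA and passes electrons to the respiratory chain. Acetyl-CoA from fatty acids and from pyruvate then enters the tricarboxylic acid cycle, and the pyruvate dehydrogenase complex, with its inhibitory kinases, sets how much of it comes from glucose. Valve leaflets are mainly connective tissue, and heart muscle reaches into the base of the leaflet.

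The deposited values are 1 value per group and tissue in FPKM, fragments per kilobase of gene scaled to the fragments sequenced, with no value for a single dog. The spread among animals therefore cannot be given, and library depth is unknown. Every fold change below is on the log2 scale with DMVD over control, and ± gives its standard error (SE), taken back from the test statistic the authors deposited. A gene is said to have passed where the authors' p, adjusted by Benjamini-Hochberg over all genes tested in that tissue, was at most 0.05.

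The labelled tissues were checked against marker genes. The valve groups carried the connective tissue genes COL1A1, at 201 FPKM in DMVD and 127 FPKM in control valve, and LUM, at 620.3 FPKM in DMVD and 575 FPKM in control valve. In the ventricle COL1A1 was at 5.61 FPKM in DMVD and 4.82 FPKM in control, and LUM at 56.9 FPKM in DMVD and 73.6 FPKM in control. The row named COL3A1 was not tested in either tissue. It stood at 0.449 FPKM in DMVD and 0.455 FPKM in control valve, and at 0.344 FPKM in DMVD and 0.0809 FPKM in control ventricle. Whether the row holds the gene of that name was not checked, so its values are not read here as a COL3A1 level. Heart muscle transcripts were abundant in the valve too: the cardiac troponin gene TNNT2 stood at 1846 FPKM in DMVD and 4523 FPKM in control valve, against 3999.7 FPKM in DMVD and 7051 FPKM in control ventricle. The tables of the tissues were normalised separately, so levels across them are set side by side only.

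All 32 tested genes were expressed in every group. In the ventricle they ran between 9.12 and 3187 FPKM in DMVD, with a median of 93.8, and between 4.43 and 3480.4 FPKM in control, with a median of 128. In the valve they ran between 8.67 and 557 FPKM in DMVD, with a median of 44.8, and between 9.35 and 1386 FPKM in control, with a median of 90.2. The highest in all 4 groups was FABP3, the heart fatty acid-binding protein, whose control ventricle level ranked 37 among 13788 tested genes. ACADM, the medium-chain acyl-CoA dehydrogenase, came next in the ventricle, and its control level ranked 139.

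The remaining 3 rows, named HADHB, IDH3B and MDH2, were not tested by the authors and stood near 0. The row named HADHB was listed at 0 in all 4 groups, that named IDH3B reached at most 0.0237 FPKM, and that named MDH2 at most 0.119 FPKM. Their listed spans are short, at 1339, 1836 and 822 bases. None of the 10 nearest named genes in the table lay among the 10 nearest on either side of the gene of that name in RefSeq (assembly UU_Cfam_GSD_1.0), whereas all 32 tested genes shared at least 3 such neighbours. The values of these 3 rows are therefore not read here as levels of the trifunctional protein beta subunit, of the isocitrate dehydrogenase beta subunit or of mitochondrial malate dehydrogenase.

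**Figure D1:**
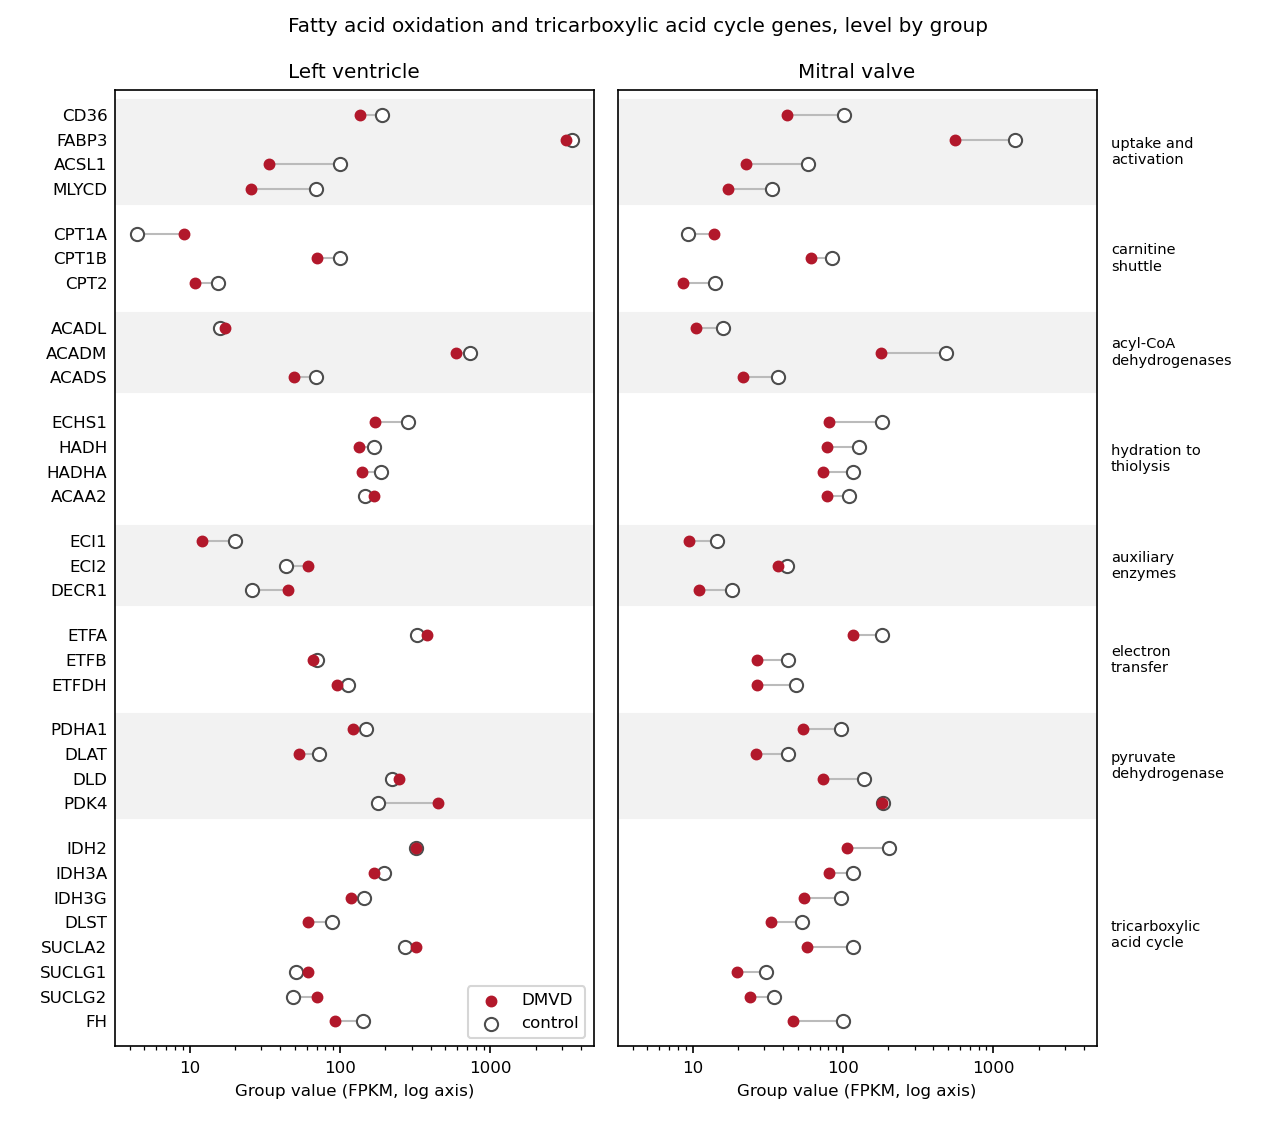
Group values in FPKM on a log axis for the 32 tested genes, ordered by role, in the left ventricle (left panel) and the mitral valve (right panel); filled points are DMVD, open points control, and each is 1 deposited value with no error. In the valve 31 of 32 DMVD points lie left of the control point, CPT1A being the exception and PDK4 nearly coinciding, while in the ventricle 20 of 32 do.

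In the left ventricle, 2 genes fell in DMVD and none rose. Both act at the entry of fatty acids into oxidation: ACSL1, the main long-chain acyl-CoA synthetase of heart, which activates fatty acids, and MLYCD, malonyl-CoA decarboxylase, which removes the malonyl-CoA that inhibits the carnitine shuttle. The other 30 did not pass, and PDK4, the kinase that switches off pyruvate dehydrogenase, had the largest positive value. Of the 32 genes 20 had lower and 12 higher DMVD values, with a median of -0.27, against a median of 0.11 over the 4355 tested genes that averaged 10 FPKM or more, of which 41.4% had lower DMVD values. Over all 13451 tested genes with a fold change the median was -0.04 and 52.9% had lower DMVD values. The 21 genes at a listed locus of their own had a median of -0.08, closer to 0. In this tissue 3.08% of all 13788 tested genes passed in either direction, 1.16% as lower and 1.92% as higher, beside 2 lower and 0 higher of the 32. At an unadjusted p under 0.05, 2 of the 32 were lower and 1 was higher, beside 5.51% lower, 5.74% higher and 11.3% in either direction among all tested genes.

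ACSL1 (ENSCAFG00000007662, chromosome 16, listed from 45735581 to 45806294 on CanFam3.1) had 33.5 FPKM in DMVD ventricle and 99.8 FPKM in control ventricle. Its DMVD value was 0.336 times the control value, a log2 fold change of -1.57 ± 0.49 with a 95% interval of -2.54 to -0.61 (by the authors' test adjusted p = 0.0462). When fold changes were centred on the median of all tested genes averaging 1 FPKM or more, a shift of -0.02, the adjusted p became 0.0521, past the threshold on the other side. MLYCD (ENSCAFG00000019971, chromosome 5, listed from 68385617 to 68399965) had 25.7 FPKM in DMVD ventricle and 68.7 FPKM in control ventricle. Its log2 fold change was -1.42 ± 0.42 with an interval of -2.25 to -0.59 (by the authors' test adjusted p = 0.0301). Under the stricter Benjamini-Yekutieli adjustment neither of the authors' p-values passed (adjusted p = 0.467 for ACSL1 and 0.305 for MLYCD).

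The uptake genes beside them did not pass. CD36, the fatty acid translocase of the cell membrane, had 135.0 FPKM in DMVD ventricle and 189.6 FPKM in control ventricle (-0.49 ± 0.50). FABP3 had 3187 FPKM in DMVD and 3480.4 FPKM in control ventricle, a value of -0.13 ± 0.56 whose 95% interval, -1.22 to 0.96, leaves room for a change in either direction.

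Adipocytes also express uptake and activation genes, and adipocyte markers moved in the same comparison. Of 11 adipocyte markers named 7 had a row, while ADIPOQ, FABP4, LPL and LIPE had none. Of the 6 tested in the ventricle 2 fell, 1 rose and 3 did not pass. By value 3 of the 6 were lower and 3 higher in DMVD. Among those that did not pass, CIDEA was lower (-1.68 ± 0.57), while PNPLA2 (0.51 ± 0.56) and CFD (0.16 ± 0.45) were higher. The lipid droplet gene PLIN1 had 0.245 FPKM in DMVD and 5.44 FPKM in control ventricle (-4.48 ± 0.79), and CIDEC had 0.318 FPKM in DMVD and 2.30 FPKM in control ventricle (-2.86 ± 0.80), while RETN had 21.4 FPKM in DMVD and 3.63 FPKM in control ventricle (2.56 ± 0.75). The summed level of the 6 was 203 FPKM in DMVD and 147 FPKM in control, of which PNPLA2, a lipase that heart muscle also makes, was 146 FPKM in DMVD and 102 FPKM in control. The leptin gene LEP, a defining marker, stood at 0.0755 FPKM in DMVD and 0.278 FPKM in control and was not tested. The part of these cells in the ACSL1 and MLYCD values was not tested.

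Heart muscle markers gave no call in the ventricle. Of 12 tested cardiomyocyte markers 8 had lower and 4 higher DMVD values, none passed, and their median was -0.19. Their summed level was 26776 FPKM in DMVD and 31891 FPKM in control ventricle. MYH7, a defining marker, had 1637 FPKM in DMVD and is listed at 0 in control ventricle with a status that marks too many fragments for an estimate, so it was left out of these counts. All 4 tested erythroid genes rose, with a summed level of 3604 FPKM in DMVD and 62.6 FPKM in control ventricle, as did 2 of 8 endothelial markers (241 FPKM in DMVD and 138 FPKM in control, summed) and 1 of 7 macrophage markers (76.9 FPKM in DMVD and 31.4 FPKM in control, summed). By value all 8 tested endothelial and all 7 tested macrophage markers were higher in DMVD ventricle, with medians of 0.66 and 1.21. The 6 tested fibroblast markers had a median of -0.40 with none past the threshold. The part of these cells in the metabolic values was not tested. In bulk tissue, fewer cells of a type and less RNA per cell cannot be told apart.

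The carnitine shuttle genes did not pass in the ventricle. CPT1B, the muscle form of the outer-membrane carnitine palmitoyltransferase that commits fatty acids to oxidation, had 70.2 FPKM in DMVD and 100.2 FPKM in control ventricle, a log2 fold change of -0.51 ± 0.56 (by the authors' test adjusted p = 0.919). CPT1A, the form that prevails in liver, was far lower, at 9.12 FPKM in DMVD and 4.43 FPKM in control ventricle, a log2 fold change of 1.04 ± 0.67 (by the authors' test adjusted p = 0.643). CPT2, the inner-membrane enzyme that releases the acyl-CoA again, had 10.8 FPKM in DMVD and 15.4 FPKM in control ventricle (-0.52 ± 0.45). The listed loci of CPT1B (chromosome 10, 16669325 to 16801725) and CPT1A (chromosome 18, 49004443 to 49232111) are shared with other genes, 8 and 6 genes in all.

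No enzyme of beta-oxidation passed in the ventricle. Among the acyl-CoA dehydrogenases, which take the first electrons from the acyl chain, ACADM had 593 FPKM in DMVD and 729.9 FPKM in control ventricle, a log2 fold change of -0.30 ± 0.79 (by the authors' test adjusted p = 1.0). The long-chain form ACADL had 17.3 FPKM in DMVD and 16.0 FPKM in control (0.11 ± 0.46). The short-chain form ACADS had 49.2 FPKM in DMVD and 69.6 FPKM in control (-0.50 ± 0.53).

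The next steps are hydration, a second oxidation and thiolysis. The hydratase ECHS1 had 171 FPKM in DMVD and 284 FPKM in control ventricle, a log2 fold change of -0.73 ± 0.68 (by the authors' test adjusted p = 0.868), and its listed locus is shared by 26 genes. HADHA, the alpha subunit of the trifunctional protein, had 139.6 FPKM in DMVD and 186 FPKM in control (-0.42 ± 0.85), and the short-chain dehydrogenase HADH had 133 FPKM in DMVD and 169 FPKM in control (-0.35 ± 0.47). The thiolase ACAA2 lay the other way, with 169 FPKM in DMVD and 146 FPKM in control (0.21 ± 0.49).

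The auxiliary enzymes, which prepare unsaturated fatty acids for the main pathway, lay on both sides of 0 in the ventricle. DECR1, the dienoyl-CoA reductase, had 44.8 FPKM in DMVD and 25.8 FPKM in control ventricle, a log2 fold change of 0.79 ± 0.43 (by the authors' test adjusted p = 0.501). The isomerase ECI2 had 61.4 FPKM in DMVD and 43.6 FPKM in control (0.49 ± 0.43), whereas the isomerase ECI1 had 12.1 FPKM in DMVD and 20.0 FPKM in control (-0.73 ± 0.42, by the authors' test adjusted p = 0.566). None of the 3 passed. The electron transfer flavoprotein and its dehydrogenase, which hand the electrons on to ubiquinone, had values near 0. The flavoprotein subunit ETFA had 379.9 FPKM in DMVD and 323 FPKM in control ventricle (0.23 ± 0.51), and ETFB had 66.0 FPKM in DMVD and 69.8 FPKM in control (-0.08 ± 0.43). The dehydrogenase ETFDH had 94.8 FPKM in DMVD and 113 FPKM in control (-0.25 ± 0.49).

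At the pyruvate branch, PDK4 (ENSCAFG00000002129, chromosome 14, listed from 20825695 to 20839030) had 447 FPKM in DMVD ventricle and 178 FPKM in control ventricle. Its log2 fold change was 1.33 ± 0.59 with a 95% interval of 0.17 to 2.49, and it did not pass (unadjusted p = 0.0247 in the authors' deposited table, adjusted p = 0.302). It was the only 1 of the 32 with a higher DMVD value at an unadjusted p under 0.05. Of the other listed kinases of the complex, PDK2 had 96.3 FPKM in DMVD and 152 FPKM in control ventricle (-0.65 ± 0.47). PDK3 had 14.9 FPKM in DMVD and 11.5 FPKM in control ventricle (0.37 ± 0.41), and neither passed. Among the 32 genes, the subunits of the complex that these kinases act on had values within their SEs. The E3-binding protein PDHX, outside the 32, had 47.0 FPKM in DMVD and 74.3 FPKM in control ventricle (-0.66 ± 0.44) and did not pass. The E1 alpha subunit PDHA1 had 121 FPKM in DMVD and 148 FPKM in control (-0.29 ± 0.77). The acetyltransferase DLAT had 53.0 FPKM in DMVD and 71.9 FPKM in control (-0.44 ± 0.73), and the dihydrolipoamide dehydrogenase DLD 247 FPKM in DMVD and 222 FPKM in control (0.15 ± 0.51).

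The 8 tested tricarboxylic acid cycle genes split evenly in the ventricle, with 4 higher and 4 lower DMVD values, a median of -0.11 and none past the threshold. The subunits of succinyl-CoA synthetase all had higher DMVD values. SUCLA2, the beta subunit of the ATP-forming enzyme, had 320.3 FPKM in DMVD and 272 FPKM in control (0.23 ± 0.52). SUCLG2, the beta subunit of the GTP-forming enzyme, had 70.5 FPKM in DMVD and 48.7 FPKM in control (0.53 ± 0.55), and the shared alpha subunit SUCLG1 had 61.4 FPKM in DMVD and 50.8 FPKM in control (0.27 ± 0.48). Fumarase, FH, had 92.7 FPKM in DMVD and 143 FPKM in control (-0.62 ± 0.45). DLST, a component of the 2-oxoglutarate dehydrogenase complex, had 60.9 FPKM in DMVD and 88.4 FPKM in control (-0.54 ± 0.47). The NADP-dependent isocitrate dehydrogenase IDH2 had 319.9 FPKM in DMVD and 318 FPKM in control, with 0.01 ± 0.51, which becomes -0.11 when centred on tested genes averaging 10 FPKM or more. Of the NAD-dependent enzyme, subunit IDH3A had 169 FPKM in DMVD and 197 FPKM in control (-0.23 ± 0.79), and IDH3G had 119 FPKM in DMVD and 145 FPKM in control (-0.29 ± 0.87).

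**Figure D2:**
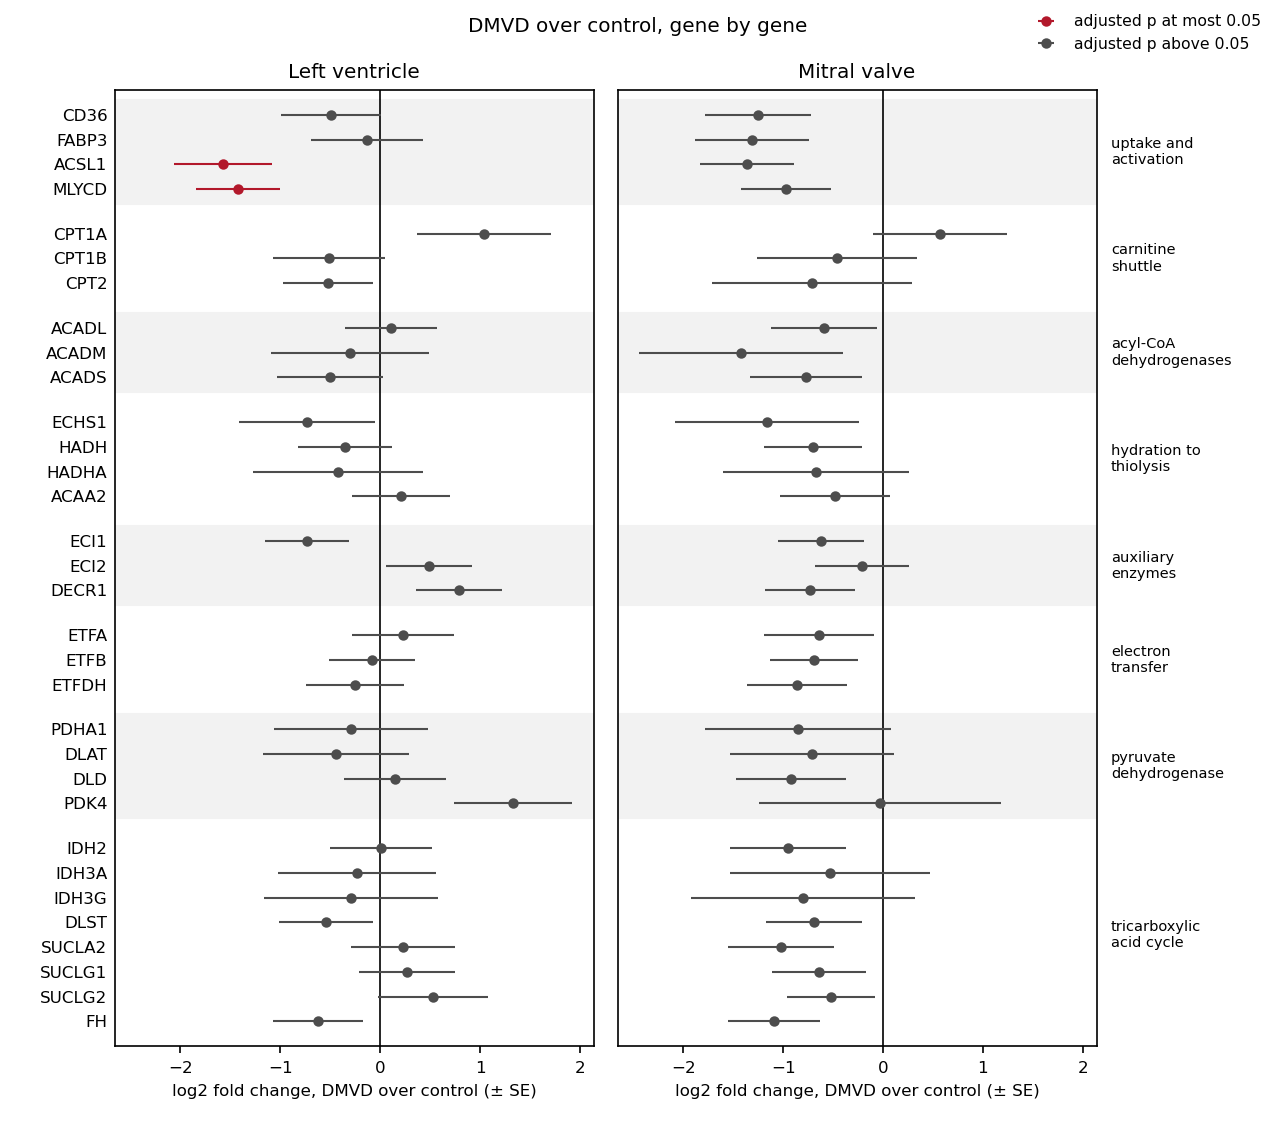
Log2 fold change of DMVD over control for the 32 tested genes, ordered by role, in the left ventricle (left panel) and the mitral valve (right panel); bars are the SE implied by the authors' statistic. ACSL1 and MLYCD in the ventricle are the 2 values with an adjusted p at most 0.05, and 31 of 32 valve values lie below 0.

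In the mitral valve, no gene of oxidation or the cycle passed, while nearly all had lower DMVD values. Of the 32 genes 31 were lower and 1, CPT1A, was higher, with a median log2 fold change of -0.71 and a range of -1.42 to 0.57. Over the 5371 tested valve genes that averaged 10 FPKM or more the median was 0.01 and 49.4% had lower DMVD values. Over all 14477 tested genes with a fold change the median was 0.05 and 45.3% had lower DMVD values. None of the 32 passed by the authors' test with Benjamini-Hochberg adjustment, beside 0.419% of all 14810 tested valve genes in either direction, 0.108% as lower and 0.311% as higher. At an unadjusted p under 0.05, 5 of the 32 were lower and none was higher, beside 1.47% lower, 2.73% higher and 4.2% in either direction among all tested valve genes.

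Heart muscle markers also had lower values in the DMVD valve. Of 12 tested cardiomyocyte markers 11 had lower and 1 had a higher DMVD value, with a median of -0.96. Their SEs were wide, between 0.59 and 7.63 with a median of 1.04. NRAP, with 67.6 FPKM in DMVD and 136 FPKM in control valve, is listed with a failed test and was left out of these counts. Their summed level was 10201 FPKM in DMVD and 20801 FPKM in control valve, and that of the 32 metabolic genes was 2234 FPKM in DMVD and 4324 FPKM in control valve. The one marker that passed, the ventricular light chain gene MYL3, had 36.6 FPKM in DMVD and 1335 FPKM in control valve (-5.19 ± 0.68). No tested marker of the list stood at 0 in either valve group. The 6 tested valve interstitial and fibroblast markers had a median of 0.20, with a summed level of 1367 FPKM in DMVD and 1214 FPKM in control valve. Of the blood, endothelial and macrophage lists 1 gene each rose past the threshold: HBA of 4, EMCN of 8 and C1QB of 8. By value all 8 tested endothelial and all 8 tested macrophage markers were higher in DMVD valve, with medians of 0.74 and 1.84. The 3 erythroid genes with a fold change were higher too, with a median of 2.52. The part of the muscle and other cell content in the lower values of the metabolic genes was not tested.

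The uptake and activation genes held 4 of the 5 valve values with an unadjusted p under 0.05. ACSL1 had 22.8 FPKM in DMVD valve and 58.4 FPKM in control valve, a log2 fold change of -1.36 ± 0.47 with an interval of -2.28 to -0.43 (unadjusted p = 0.00397 in the authors' deposited table, adjusted p = 0.326). FABP3 had 557 FPKM in DMVD valve and 1386 FPKM in control valve, a log2 fold change of -1.31 ± 0.57 (by the authors' test adjusted p = 0.804). CD36 had 42.7 FPKM in DMVD valve and 101 FPKM in control valve (-1.25 ± 0.53, unadjusted p = 0.0191 in the authors' deposited table, adjusted p = 0.781). MLYCD had 17.1 FPKM in DMVD valve and 33.6 FPKM in control valve (-0.97 ± 0.45, unadjusted p = 0.0315 in the authors' deposited table, adjusted p = 0.960).

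Adipocyte markers of the valve had 4 lower and 2 higher DMVD values among 6 tested, and none passed. PLIN1 had 5.64 FPKM in DMVD and 24.8 FPKM in control valve (-2.13 ± 0.59), and CIDEC had 6.2 FPKM in DMVD and 17.8 FPKM in control valve (-1.52 ± 0.60). CIDEA had 3.29 FPKM in DMVD and 13.4 FPKM in control valve (-2.02 ± 0.59). The higher values were those of RETN, with 31.8 FPKM in DMVD and 7.61 FPKM in control valve (2.06 ± 0.89), and of CFD, with 77.9 FPKM in DMVD and 50.2 FPKM in control valve (0.64 ± 0.56). The summed level of the 6 was 248 FPKM in DMVD and 238 FPKM in control valve, of which PNPLA2 was 123 FPKM in DMVD and 124 FPKM in control. Their part in the values of CD36 and ACSL1 was not tested.

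The carnitine shuttle held the only higher valve value. CPT1A had 13.8 FPKM in DMVD valve and 9.35 FPKM in control valve, a log2 fold change of 0.57 ± 0.67 (adjusted p = 1.0), against 61.1 FPKM in DMVD and 84.0 FPKM in control for the muscle form CPT1B (-0.46 ± 0.80, by the authors' test adjusted p = 1.0). CPT2 had 8.67 FPKM in DMVD valve and 14.2 FPKM in control valve (-0.71 ± 1.0).

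The beta-oxidation enzymes of the valve lay between -1.42 and -0.21. ACADM (ENSCAFG00000020393, chromosome 6, listed from 70850284 to 70879974) had the lowest value of all, with 180.2 FPKM in DMVD valve and 482 FPKM in control valve, a log2 fold change of -1.42 ± 1.02 (by the authors' test adjusted p = 1.0). Its 95% interval, -3.41 to 0.57, is among the widest. ACADL had 10.5 FPKM in DMVD and 15.9 FPKM in control valve (-0.59 ± 0.53), and ACADS had 21.8 FPKM in DMVD and 37.2 FPKM in control valve (-0.77 ± 0.56). ECHS1 had 80.9 FPKM in DMVD and 181 FPKM in control valve (-1.16 ± 0.92), HADHA 73.3 FPKM in DMVD and 116 FPKM in control (-0.67 ± 0.93), and HADH 78.3 FPKM in DMVD and 128 FPKM in control (-0.70 ± 0.49). The thiolase ACAA2, at 78.2 FPKM in DMVD and 109 FPKM in control valve, had -0.48 ± 0.55. The control levels of these last 4 enzymes lay between 109 and 181 FPKM, and their DMVD levels between 73.3 and 80.9 FPKM.

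The auxiliary enzymes and electron carriers of the valve also had lower DMVD values, and none passed. DECR1 had 11.1 FPKM in DMVD and 18.3 FPKM in control valve (-0.73 ± 0.45), ECI1 had 9.47 FPKM in DMVD and 14.5 FPKM in control (-0.62 ± 0.43), and ECI2 had 37.1 FPKM in DMVD and 42.8 FPKM in control (-0.21 ± 0.47, by the authors' test adjusted p = 1.0). ETFA had 117 FPKM in DMVD and 182 FPKM in control valve (-0.64 ± 0.55), and ETFB had 26.9 FPKM in DMVD and 43.4 FPKM in control (-0.69 ± 0.44). The dehydrogenase ETFDH, with 26.7 FPKM in DMVD and 48.5 FPKM in control valve, had -0.86 ± 0.50.

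The valve values of PDK4 nearly coincided, while those of its target complex were lower in DMVD. PDK4 had 182 FPKM in DMVD valve and 186 FPKM in control valve, a log2 fold change of -0.03 ± 1.21 (by the authors' test adjusted p = 1.0), with a 95% interval of -2.41 to 2.35. PDHA1 had 54.0 FPKM in DMVD and 97.1 FPKM in control valve (-0.85 ± 0.93), DLAT 26.4 FPKM in DMVD and 43.0 FPKM in control (-0.71 ± 0.82), and DLD 73.9 FPKM in DMVD and 139 FPKM in control (-0.92 ± 0.55). The difference between the kinase and these subunits was not tested.

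All 8 tested tricarboxylic acid cycle genes had lower DMVD values in the valve, with a median of -0.74 and none past the threshold. FH (ENSCAFG00000015704, chromosome 7, listed from 32901605 to 32927400) had 46.9 FPKM in DMVD valve and 100 FPKM in control valve (-1.09 ± 0.46, unadjusted p = 0.0185 in the authors' deposited table, adjusted p = 0.776). SUCLA2 had 57.9 FPKM in DMVD and 117 FPKM in control valve (-1.02 ± 0.53), and IDH2 had 106 FPKM in DMVD and 204 FPKM in control (-0.95 ± 0.58). The other 5 lay between -0.80 and -0.52. Among them IDH3G had 55.5 FPKM in DMVD and 96.4 FPKM in control (-0.80 ± 1.12), IDH3A had 80.5 FPKM in DMVD and 116 FPKM in control (-0.53 ± 1.0), and DLST had 33.1 FPKM in DMVD and 53.3 FPKM in control (-0.69 ± 0.48). SUCLG1 had 19.9 FPKM in DMVD and 30.9 FPKM in control (-0.64 ± 0.47), and SUCLG2 had 24.1 FPKM in DMVD and 34.6 FPKM in control (-0.52 ± 0.44).

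**Figure D3:**
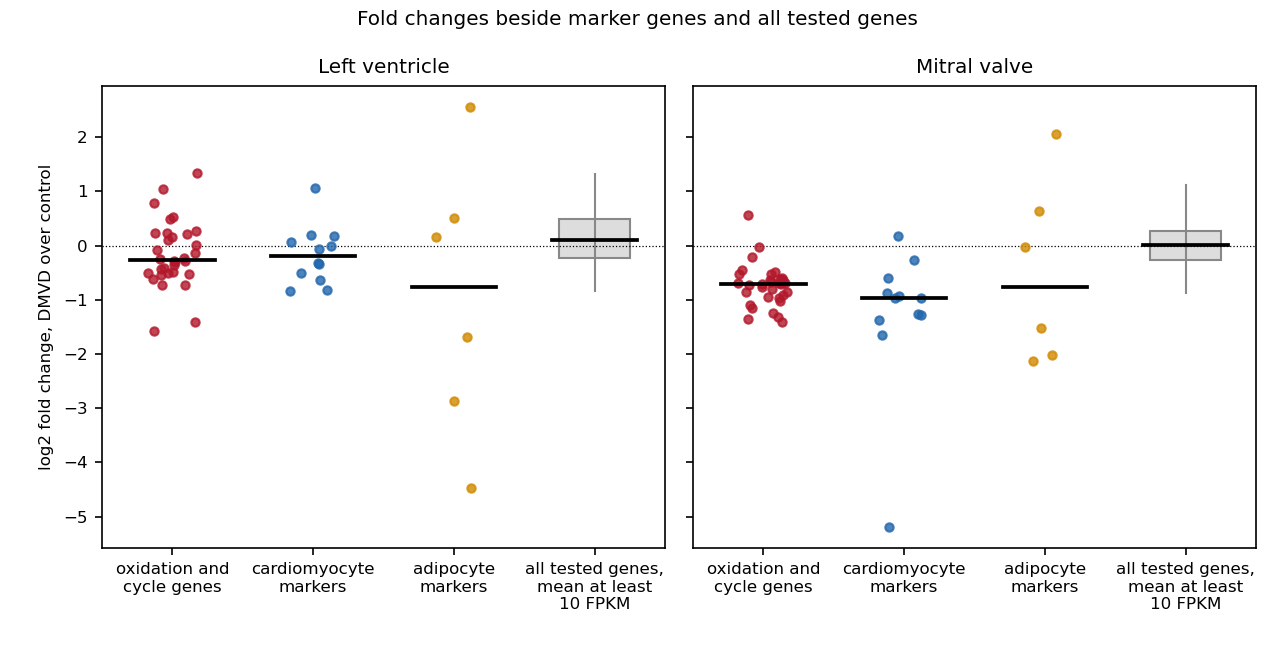
Log2 fold change of DMVD over control for the 32 oxidation and cycle genes, the tested cardiomyocyte and adipocyte markers (1 point a gene, bar at the median) and all tested genes averaging 10 FPKM or more (box, 25th to 75th percentile; line, 5th to 95th percentile; bar, median), in each tissue. In the valve the metabolic genes have a median of -0.71, the cardiomyocyte markers -0.96 and all such genes 0.01; in the ventricle the medians are -0.27, -0.19 and 0.11.

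The tissues were next compared in their DMVD effect, as the valve log2 fold change minus the ventricle one. The difference was negative for 28 of 32 genes and positive for ACSL1, MLYCD, CPT1B and ECI1, with a median of -0.59. Over all 13099 genes compared, taken at any level, the median was 0.05 and 46.7% were negative. Over genes averaging 10 FPKM or more, the median DMVD effect was 0.11 in the ventricle and 0.01 in the valve. None of the 32 passed after Benjamini-Hochberg adjustment over all 13099 genes, beside 0.107% of them in either direction and 0.0687% more negative in the valve. At an unadjusted p under 0.05 the count was 1 of 32, beside 2.66% of all genes compared in either direction and 0.962% more negative in the valve. It was DECR1, at -1.52 ± 0.62 (by a normal test on the SEs implied by the authors, unadjusted p = 0.0144, adjusted p = 1.0), with the group values given above. Next in size were PDK4 (-1.36 ± 1.35), SUCLA2 (-1.25 ± 0.74) and FABP3 (-1.19 ± 0.80). For ACSL1 the difference was 0.22 ± 0.68 and for MLYCD 0.45 ± 0.62, so the ventricle result of these genes was not shown to differ from the valve. The test takes the tissues as independent, although 3 control dogs and 1 DMVD dog gave both.

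**Figure D4:**
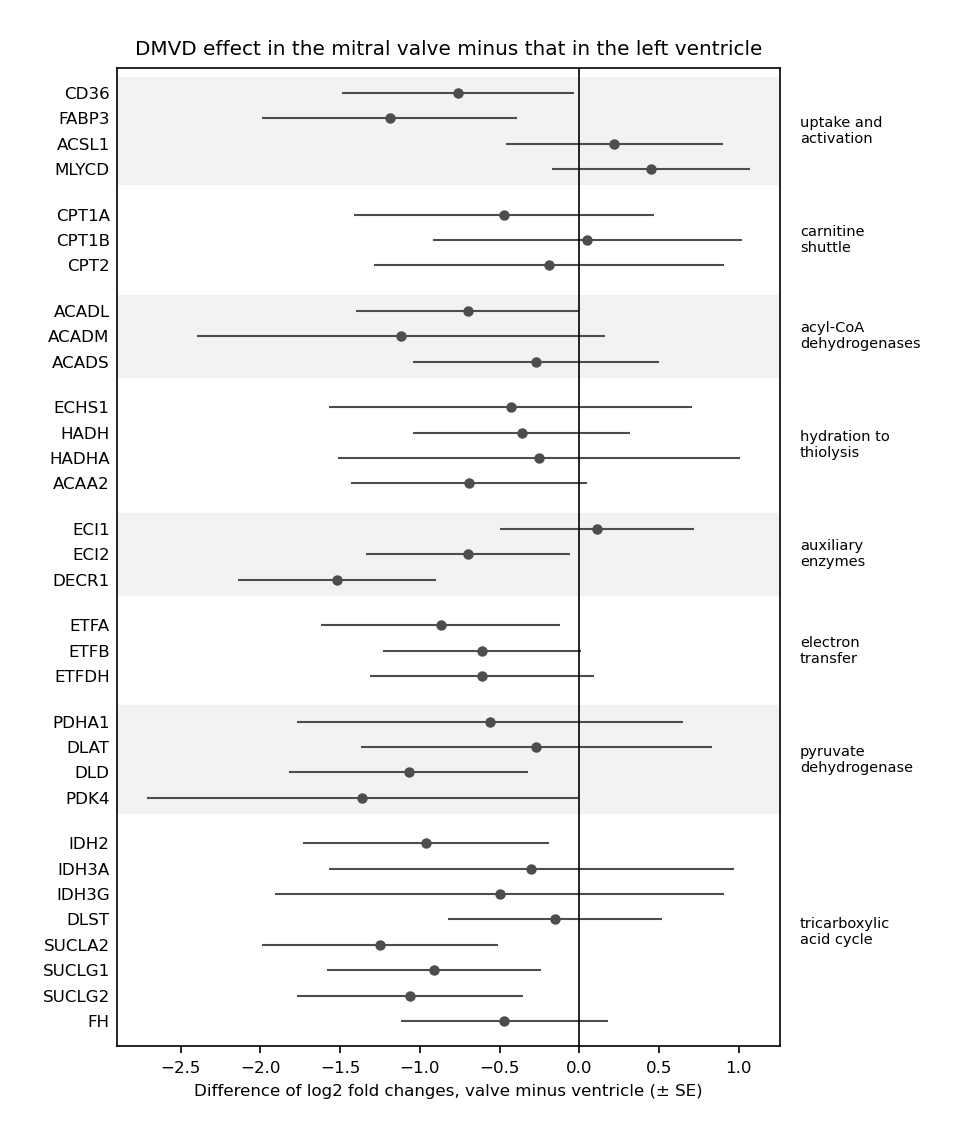
DMVD log2 fold change in the mitral valve minus that in the left ventricle for the 32 tested genes, ordered by role; bars are the SE of the difference. Of the 32 values 28 lie below 0, DECR1 lowest at -1.52, and none has an adjusted p at most 0.05.

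By level, 31 of the 32 genes were higher in the ventricle than in the valve in DMVD dogs and 30 of 32 in control dogs, read across separately normalised tables. The median ratio of ventricle to valve was 2.15 in DMVD and 1.56 in control dogs, against 0.791 and 0.804 over all genes above 1 FPKM in both tissues. CPT1A was the exception in both, at 0.658 times the valve level in DMVD and 0.474 times in control dogs, and PDK4, at 0.957, joined it in control dogs. The widest ratios were those of FABP3, 5.72 in DMVD and 2.51 in control, and of SUCLA2, 5.54 in DMVD and 2.33 in control.

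Other genes of the same or linked pathways, from lists drawn up by function but with earlier results of these data known, gave no call. Of 27 tested further genes of fatty acid oxidation and linked metabolism, 22 had lower DMVD values in the ventricle, with a median of -0.24. Of 28 in the valve 24 did, with a median of -0.36. Over all tested genes with a fold change, 52.9% had lower DMVD values in the ventricle and 45.3% in the valve. That list also holds genes outside beta-oxidation, such as ACACA, ACACB, ETHE1 and PCCB. The propionyl-CoA carboxylase subunit PCCB had the smallest valve p of that list, with 17.8 FPKM in DMVD and 32.6 FPKM in control (-0.88 ± 0.44, by the authors' test adjusted p = 1.0). The peroxisomal bifunctional enzyme EHHADH had the smallest ventricle p of that list, with 6.03 FPKM in DMVD and 12.9 FPKM in control (-1.10 ± 0.44, by the authors' test adjusted p = 0.197). Of 13 tested further cycle and linked genes in the ventricle 9 were lower, with a median of -0.45, and of 14 in the valve 11 were, with a median of -0.52. The cytosolic isocitrate dehydrogenase IDH1 had the smallest ventricle p there, with 3.57 FPKM in DMVD and 8.98 FPKM in control (-1.33 ± 0.47, by the authors' test adjusted p = 0.110). The transhydrogenase NNT had the smallest valve p, with 31.8 FPKM in DMVD and 73.5 FPKM in control (-1.21 ± 0.56, by the authors' test adjusted p = 0.933).

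Regulators were likewise without a call. Of 10 tested genes that regulate or complete pyruvate dehydrogenase 8 had lower DMVD values in the ventricle (median -0.50) and all 10 in the valve (median -0.44). The smallest p there belonged to LIPT2, an enzyme of lipoate synthesis, in the ventricle (-0.74 ± 0.46) and to PDHX, the E3-binding protein of the complex, in the valve (-0.91 ± 0.46). Of 16 tested regulators of oxidative metabolism 9 were lower in the ventricle (median -0.12) and 12 in the valve (median -0.31). Most are transcriptional, but PRKAA1 and PRKAA2 encode kinase subunits and SIRT3 a mitochondrial deacetylase. The smallest p there belonged to the coactivator gene PPARGC1B in the ventricle (-1.04 ± 0.53) and to PPARG in the valve (-1.25 ± 0.61). PPARA, the nuclear receptor that drives many fatty acid oxidation genes, had 7.16 FPKM in DMVD and 12.9 FPKM in control ventricle (-0.85 ± 0.44), and 4.13 FPKM in DMVD and 7.01 FPKM in control valve (-0.76 ± 0.56). Its coactivator PPARGC1A had 15.9 FPKM in DMVD and 9.59 FPKM in control ventricle (0.73 ± 0.43), and 5.66 FPKM in DMVD and 7.49 FPKM in control valve (-0.40 ± 0.47). Of 4 tested further PPARA targets, 2 were lower and 2 higher in each tissue, and the lipoprotein receptor gene VLDLR had the smallest p in both (-1.11 ± 0.44 in the ventricle and -0.96 ± 0.53 in the valve). Among 15 tested genes of fatty acid uptake, activation and storage, 10 were lower in the ventricle (median -0.29) and 9 in the valve (median -0.12), with the smallest p for the synthetase ACSL5 in the ventricle (1.35 ± 0.59) and the transporter SLC27A6 in the valve (2.0 ± 0.75).

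The precision sets what these comparisons could show. With the median SE of the 32 genes, 0.51 in the ventricle and 0.55 in the valve, a log2 fold change had to reach 1.60 in the ventricle and 2.04 in the valve to pass. Across the SEs of the single genes that size ran between 1.34 and 2.75 in the ventricle, where ACSL1 and MLYCD passed with values under 1.60, and between 1.61 and 4.52 in the valve. The 95% interval of 31 of the 32 valve values reached below -1. The SE is the authors' model error and does not show agreement between dogs. The 11 tested genes at a locus shared with other genes had a median SE of 0.67 in the ventricle and 0.82 in the valve, against 0.50 and 0.53 for the 21 at a locus of their own.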

How the data were processed

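Per the labels, RNA was extracted from left ventricle and mitral valve with a kit for fibrous tissue and made into TruSeq libraries. The submitters' processing notes name cutadapt, Bowtie, TopHat and the build CanFam3.1, and for the gene values themselves the program was not given in the sources used here. Deposited FPKM values, made by the authors, number 1 per group and tissue, with a test statistic, which is a score, and an unadjusted p-value per gene. The other deposited measure, a log2 fold change, is control over DMVD, so it was recomputed here as DMVD over control. The SE is the log2 fold change over its deposited statistic, since the deposited p equals its two-sided normal p within 2.84e-06 in the ventricle and 2.64e-06 in the valve. Effects of the tissues were compared by their difference over the root of the summed squared SE.

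The main test was the one the authors deposited, with Benjamini-Hochberg adjustment; no fit per library can be made from group values. The genes, roles and 12 lists (184 genes, 137 with a row) were chosen with earlier results of these data known. Genes given with adjusted p were those past the threshold, the 3 highest and 3 lowest of each tissue, CPT1B, ACADM and PDK4; of other lists, genes past the threshold or with the smallest p; PPARA, PPARGC1A and other values were added after they were seen. The calculations were tested on simulated data. The software was matplotlib 3.10.9, scipy 1.17.1, pandas 2.3.3, numpy 2.4.6 and Python 3.11.15. Loci are as the tables list them.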

Additional observations from a re-analysis of the deposited data

How the results depend on the processing

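The ventricle count of 2 genes past the threshold stayed at 2 with genes of a mean of at least 1 FPKM. It also stayed at 2 with centring on genes of a mean of at least 10 FPKM (chosen after seeing the data). It was 1 (MLYCD) when centred on genes of a mean of at least 1 FPKM, and 0 under Benjamini-Yekutieli, which is stricter by construction. Leaving out genes at shared loci could not change this count, since ACSL1 and MLYCD each lie at a locus of their own. The valve count and the count that differed between tissues were 0 under every alternative run. Leaving out genes at shared loci or adjusting more strictly could not have raised them. The median of the 32 genes ranged from -0.38 to -0.24 in the ventricle and from -0.75 to -0.68 in the valve over centring and a pseudocount of 1 FPKM. Without genes at shared loci, also chosen after seeing the data, it was -0.08 in the ventricle and -0.73 in the valve. No paired analysis was possible because the tables hold 1 value per group, and leaving out each library was not run for the same reason.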

Other observations

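Ratios between related genes, read per length within a group and with no test, were chosen after the values were seen. The ratio of CPT1B to CPT1A was 7.70 in DMVD and 22.6 in control ventricle, and 4.41 in DMVD and 8.99 in control valve. The ratio of PDK4 to PDHA1 was 3.69 in DMVD and 1.20 in control ventricle, and 3.37 in DMVD and 1.91 in control valve. The ratio of ECI1 to ECI2 was 0.197 in DMVD and 0.460 in control ventricle, and 0.255 in DMVD and 0.339 in control valve. The ratio of SUCLA2 to SUCLG2 was 4.54 in DMVD and 5.59 in control ventricle, and 2.40 in DMVD and 3.38 in control valve. For ACADM over ACADL the values were 34.3 in DMVD and 45.7 in control ventricle, and 17.1 in DMVD and 30.4 in control valve. Those of ETFA over ETFB were 5.75 in DMVD and 4.63 in control ventricle, and 4.34 in DMVD and 4.18 in control valve. CPT1A, CPT1B, PDHA1, ECI1 and ECI2 lie at loci shared with other genes.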
